A study of Homo sapiens with 12 samples.

Results

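The histone genes of JJN3 cells were described at the RNA level. The members are the 77 of 59276 gene symbols in the deposited table that carry a name of the linker histone H1, of the core histones H2A, H2B, H3 and H4, or of the macroH2A genes (symbols beginning H1-, H2AC, H2AZ, H2AX, H2AJ, H2BC, H3C, H3-3A, H3-3B or H4C followed by their number, and MACROH2A1 and MACROH2A2). The rule rests on names and uses no measured value, though it was chosen with earlier results of these data known. They were split into 65 clustered genes (the H2AC, H2BC, H3C and H4C genes and H1-1 to H1-6) and 12 variant genes (among them H1-7, H1-8, H1-10, H2AX, H2AJ, H2AZ1, H2AZ2, H3-3A, H3-3B, MACROH2A1 and MACROH2A2). By the GENCODE annotation of GRCh38, 55 clustered genes lie on chromosome 6 and 10 on chromosome 1, whereas the variant genes are spread over 10 chromosomes.

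JJN3 is a human multiple myeloma line. RNA sequencing covered 4 groups of 3 samples. Cells that carried no guide received either the solvent DMSO or 10 µM MS023, an inhibitor of type I protein arginine methyltransferases, for 3 days. The other two groups were JJN3 cells that stably express Cas9 from a lentivirus with an mCherry reporter and that hold a second, puromycin-selected lentivirus with a doxycycline-induced guide, either a control guide (isgCtrl) or a single guide against PRMT1 (PRMT1-KO, labelled iPRMT1_1), induced for 3 days. These were selected populations, and the sources do not call them clones. PRMT1 mRNA was 849 to 867 TPM (a read-based level per transcript length, scaled to the same total in every sample) in isgCtrl and 301 to 309 TPM in PRMT1-KO, and it was 634 to 670 TPM with DMSO and 656 to 700 TPM with MS023. Of the plasma cell markers, SDC1, TNFRSF17, IRF4, PRDM1 and XBP1 were at 21.4 TPM or more in every sample, while the B cell genes PAX5 and MS4A1 did not exceed 0.303 TPM. CD38, another plasma cell marker, was low at 0.734 to 5.41 TPM, and BCL6, on the mature B cell list, was at 0.391 to 3.50 TPM. MZB1 was at 105 TPM with DMSO and 2.01 TPM in isgCtrl, and SLAMF7 at 9.32 and 0.369 TPM, so the 2 control groups differ in marker genes too. Samples of a group correlated with r of 0.993 to 0.996 across genes. The study states in general that its experiments were repeated independently, but the labels do not say whether the 3 samples of a group came from separate cultures, so the p-values measure the spread between these samples, which may be technical.

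Clustered histone genes supply the bulk of new histone while DNA is copied. Their mRNAs are unusual in ending in a short stem-loop in place of a poly(A) tail, which is bound by SLBP, the stem-loop binding protein, and cut by a complex guided by the U7 small nuclear RNA, and their transcription is driven by NPAT in S phase. Variant histone genes are mostly transcribed all through the cell cycle, have poly(A) tails, and encode proteins that are placed at particular sites, such as H2A.Z at promoters, H3.3 in transcribed chromatin, phosphorylated H2AX at DNA breaks and macroH2A in silent chromatin.

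The stem-loop is the sequence feature that marks the clustered class, and it is shown because transcripts that end at it lack a poly(A) tail. A stem-loop of 16 bases that matches the known consensus was found in the annotated transcripts of all 65 clustered genes, in 1 of the 12 variant genes, and in 80 of 88938 other protein-coding transcripts (0.0900%). It occurred in 11 different sequences. One was shared by 37 genes and by no H4 gene, and 9 H4 genes shared another. The sites of members that carry the results are given 5′ to 3′ in the sense of the gene, with the stem-loop in capitals and 5 flanking bases on each side in lower case.
H2BC12: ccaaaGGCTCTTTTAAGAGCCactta
H2BC5: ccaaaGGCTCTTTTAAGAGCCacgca
H1-2: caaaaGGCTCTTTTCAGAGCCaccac
H2AC18: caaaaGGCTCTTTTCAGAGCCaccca
H2AC6: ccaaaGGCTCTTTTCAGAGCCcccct
H3C6: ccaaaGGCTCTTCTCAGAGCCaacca
H4C14: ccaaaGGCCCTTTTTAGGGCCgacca
H2AX: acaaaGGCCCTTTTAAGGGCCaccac

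In GRCh38 the site of H2BC12 is chr6:27146361-27146386 on the minus strand, and that of H2BC5 is chr6:26158582-26158607 on the plus strand. The H2AX site, chr11:119094893-119094918 on the minus strand, is the single site found in a variant gene. The transcripts of H2AX run at least 821 bases past it, so by annotation H2AX carries a stem-loop within a longer 3′ end. For 64 of the 65 clustered genes an annotated transcript ends at most 18 bases after the stem-loop, and for H2BC21 the nearest annotated end lies 1729 bases after it. For 15 clustered genes, H2BC21 among them, at least 1 annotated transcript runs at least 100 bases past the stem-loop or lacks it. Of these 15 genes, 9 had a mean of at least 1 TPM over the 12 samples, as did 17 of the other 50, and the median level was 1.34 and 0.463 TPM. The labels name total RNA as the molecule sent for sequencing, but whether it was then selected for poly(A) tails is not given in the sources used here, and in selected RNA the stem-loop transcripts would be under-measured. Levels of clustered genes are therefore given as measured, and no statement is made on their amount in the cell.

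Variant genes made up nearly all histone mRNA in the table. Their summed level was 3086, 3091 and 3124 TPM with DMSO, and that of the 65 clustered genes was 216, 232 and 186 TPM. The clustered genes thus took 5.61 to 6.98% of histone TPM with DMSO. The highest variant was H2AZ1, with a mean of 938 TPM over the 12 samples, followed by H3-3A with 544, H3-3B with 511, H2AZ2 with 239, MACROH2A1 with 206, H1-10 with 132, H2AX with 127 and H2AJ with 55.8 TPM. MACROH2A2 was at 0.354 TPM, and the germ cell linker histones H1-7 and H1-8 were listed at 0 in all 12 samples. H3-3A and H3-3B encode the same H3.3 protein, and H3-3A was higher than H3-3B in every DMSO, isgCtrl and PRMT1-KO sample and lower in every MS023 sample. Among clustered genes, 7 were listed at 0 in all 12 samples, 39 including these had means under 1 TPM, 21 had means of 1 to 10 TPM and 5 had means of at least 10 TPM. These 5 were H2BC12 with 92.5, H2AC18 with 24.0, H1-2 with 17.9, H4C14 with 12.2 and H2BC5 with 11.5 TPM. H2BC12 alone made up 42.1 to 45.7% of clustered TPM with DMSO. The median of the members' means was 0.746 TPM for the clustered and 129 TPM for the variant genes.

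The 2 classes differed from DMSO in opposite directions with MS023. The clustered sum was higher, at 376, 416 and 381 TPM against 216, 232 and 186 TPM with DMSO, a ratio of means of 1.85. The variant sum was lower with MS023, at 2247, 2329 and 2284 TPM against 3086, 3091 and 3124 TPM, a ratio of 0.738. No MS023 sample overlapped a DMSO sample in either sum, or in the clustered share of histone TPM, which was 14.3 to 15.2% with MS023. All 77 members together took 0.330 to 0.332% of all TPM with DMSO and 0.262 to 0.275% with MS023. The log2 ratio of the clustered to the variant sum was -3.88 with DMSO and -2.55 with MS023, a difference of 1.33 where the pooled SD of replicates was 0.128. In the PRMT1-KO comparison that ratio was -4.10 in isgCtrl and -4.07 in PRMT1-KO, a difference of 0.03 with an SD of 0.140. These sums are descriptions and were not tested. Without H2BC12 and H2AZ1, the most abundant gene of each class, the difference with MS023 was 0.98.

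**Figure D1:**
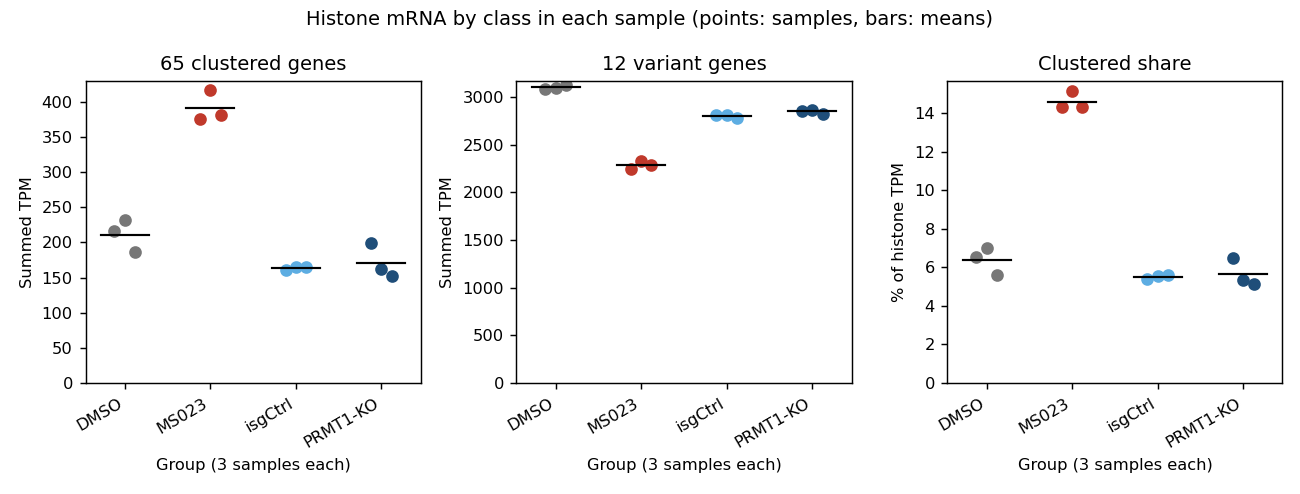
Summed TPM of the 65 clustered genes (left) and the 12 variant genes (middle), and clustered TPM in percent of all histone TPM (right), with 1 point for each of the 3 samples of a group and a bar at the mean. The MS023 samples lie at 376 to 416 TPM in the left panel, above all others, and at 2247 to 2329 TPM in the middle panel, below all others.

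Differentially expressed genes (DEGs) were those with an adjusted p under 0.05 by limma and an absolute log2 fold change above 0.48. Only genes whose log2(TPM+1) averaged over 1 in at least 1 of the 2 groups were tested. With MS023 this filter left 28 clustered and 9 variant members, and 37 clustered and 3 variant members were too low to be tested. All fold changes are differences on the log2(TPM+1) scale, which understates the change of low genes. Of the 28 clustered genes, 8 were higher and 0 lower. Of all 12903 genes tested, 30.9% were DEGs, 11.6% higher and 19.3% lower, so the 8 higher genes, 28.6% of the clustered members tested, stand beside 11.6%. As 7 clustered members passed the filter through the MS023 group alone, of which H2BC21 and H3C6 were DEGs, the share of DEGs among tested members is no measure of all members. Of the 18 clustered genes above the threshold in both groups, 6 were higher. The 11.6% covers genes above it in at least 1 group, so it is no matched share for these 18. Over all 58 clustered genes with a value above 0 in these 6 samples, 39 had a positive log2 fold change and the median was 0.11, beside -0.01 over all 28349 genes with such values. Of the 9 variant genes, 3 were lower and 1 was higher, and their median log2 fold change was -0.30 beside -0.11 over all genes tested. After median-ratio scaling, which moved the median of all genes to -0.0040, the DEGs of the whole table split into 1995 higher and 1885 lower in place of 1500 and 2486, while the clustered genes still counted 8 higher and 0 lower. Of 16 alternative fits, which gave 4 to 9 clustered genes as higher, 9 gave 0 as lower, 6 gave 1 (H2BC11 or H2BC13) and the blocked fit, with replicate number as a term, gave 2 (H1-4 and H2BC4). With an exact permutation test on 3 against 3 samples no single gene can go below p = 0.1, and this value was reached by the 8 clustered and 4 variant DEGs. That test was run on single members and not on sums or on genes outside the list.

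The most abundant clustered gene had the lowest p of the class. H2BC12 encodes an H2B that differs little from those of its neighbours. It was at 90.7, 98.0 and 84.8 TPM with DMSO and at 190, 203 and 180 TPM with MS023, so the groups lay far apart. Its log2 fold change was 1.06 (SE 0.0835, adjusted p = 2.98e-04), and this remained between 1.01 and 1.19 in 16 alternative fits. H2BC5, another H2B gene, was at 8.20, 10.7 and 10.3 TPM with DMSO and 18.1, 18.4 and 18.7 TPM with MS023 (log2 fold change 0.86, SE 0.104, adjusted p = 1.28e-03). H2BC21, the third H2B gene that rose, lies on chromosome 1 and was far lower, at 0.604, 1.05 and 0.632 TPM with DMSO and 1.74, 2.06 and 2.06 TPM with MS023 (log2 fold change 0.75, adjusted p = 3.28e-03). None of the 3 genes had a DMSO sample that reached the lowest MS023 sample. Of the 31-base stretches of H2BC12, the length with which the reads were matched, 61.9% also occur in H2BC12L, a near-copy outside the list, so a part of its reads may belong there.

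H1-2, one of the main linker histones of dividing cells, was at 16.6, 15.7 and 12.6 TPM with DMSO and at 25.2, 25.1 and 28.4 TPM with MS023. Its log2 fold change was 0.78 (SE 0.118, adjusted p = 3.00e-03). H2AC6, an H2A gene, was at 8.09, 7.84 and 6.41 TPM with DMSO and 13.4, 12.2 and 12.4 TPM with MS023 (log2 fold change 0.70, SE 0.0981, adjusted p = 2.22e-03). In both genes the groups did not overlap. H2AC13 had a lower level, at 0.932, 1.36 and 2.74 TPM with DMSO and 3.52, 5.48 and 3.44 TPM with MS023 (log2 fold change 0.98, adjusted p = 0.0284). Its adjusted p was between 0.0536 and 0.0807 when MS023 replicate 1 or 2 or DMSO replicate 1 or 2 was left out, or when all genes above 0 were tested.

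The 2 H3 genes that rose were low. H3C10 was at 0.860, 1.23 and 0.962 TPM with DMSO and 2.93, 2.09 and 2.26 TPM with MS023 (log2 fold change 0.76, adjusted p = 3.39e-03). H3C6 was at 0.0469, 0.154 and 0.123 TPM with DMSO and 1.53, 0.889 and 1.14 TPM with MS023. The samples of both genes were separated by group, and H3C6 was near 0 in all groups but MS023. Its log2 fold change of 0.97 (adjusted p = 1.30e-03) depends on the number added before the logarithm and was 2.64 with 0.1 in place of 1. Of the H4 genes none was a DEG, and the summed H4 level was 37.6, 42.7 and 24.5 TPM with DMSO and 35.2, 46.4 and 40.0 TPM with MS023, with overlap. The ratios of the mean sums with MS023 to those with DMSO were 2.25 for clustered H2A, 1.95 for clustered H2B, 1.93 for clustered H3, 1.63 for clustered H1 and 1.16 for H4.

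**Figure D2:**
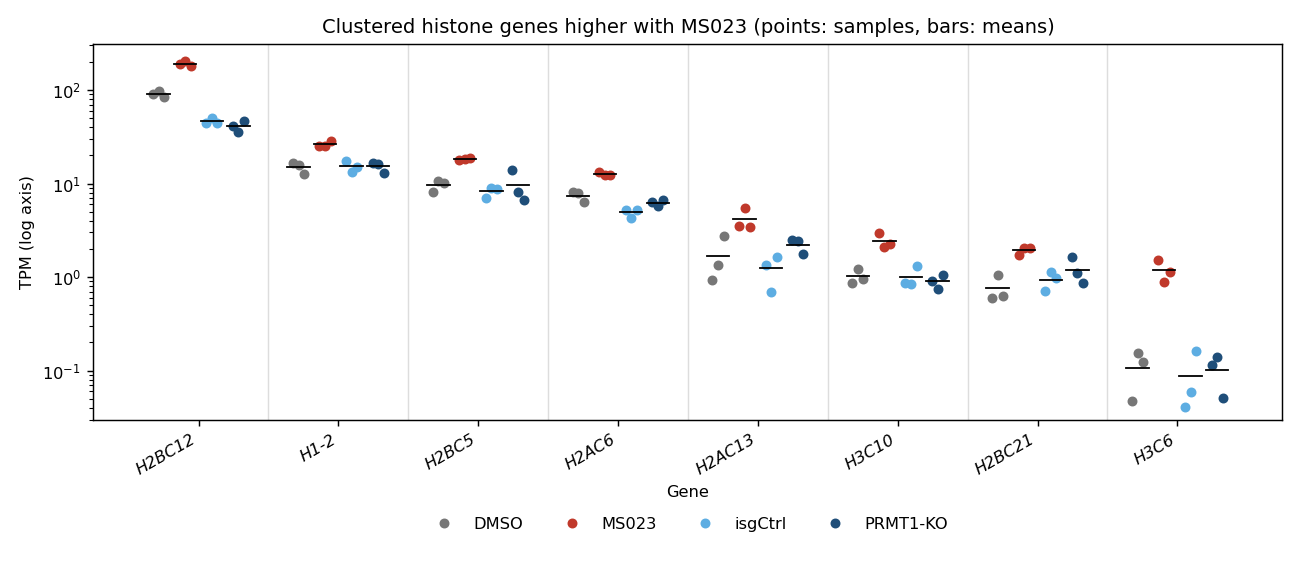
TPM on a log axis of the 8 clustered genes that were higher with MS023, with a point for each of the 3 samples of a group and a bar at the mean. H2BC12 lies at 180 to 203 TPM with MS023 against 84.8 to 98.0 TPM with DMSO, and in isgCtrl and PRMT1-KO it lies below both.

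Not every clustered gene rose. H2BC11 was at 2.63, 1.81 and 1.78 TPM with DMSO and at 0.286, 0.505 and 1.62 TPM with MS023 (log2 fold change -0.83, adjusted p = 0.0506), and H2BC13 was at 1.79, 0.573 and 0.984 TPM with DMSO and at 0.357, 0.325 and 0.412 TPM with MS023 (log2 fold change -0.59, adjusted p = 0.0538). In both genes every MS023 sample was below every DMSO sample, but neither passed the test, and both passed the filter through the DMSO group alone. H2BC11 was a DEG with quantile normalization, with eBayes with trend, with all 12 samples in 1 fit and without MS023 replicate 3, and H2BC13 was one with 0.1 added in place of 1 and without DMSO replicate 2. They were singled out after their values were seen. Counted over the 28 tested genes, 9 had all MS023 samples above all DMSO samples and 2 had all of them below, and groups without overlap were found in 59.5% of all genes tested, 23.2% above and 36.3% below. H4C14, the most abundant H4 gene, was at 11.6, 11.9 and 9.06 TPM with DMSO and at 9.11, 15.6 and 14.6 TPM with MS023, with a log2 fold change of 0.23 that did not pass (adjusted p = 0.408).

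H2AC18 and H2AC19 are 2 copies of an H2A gene on chromosome 1, and reads cannot separate them: 100% of the 31-base stretches of H2AC18 occur in H2AC19. H2AC18 was listed at 0 TPM in DMSO replicate 1, where H2AC19 was at 24.5 TPM, and at 20.3 and 15.6 TPM in the other DMSO samples, where H2AC19 was at 1.33 and 1.14 TPM. The same exchange occurred in isgCtrl replicate 3, with 0 TPM for H2AC18 and 16.7 TPM for H2AC19. By itself H2AC18 was no DEG with MS023 (log2 fold change 2.88, SE 1.15, adjusted p = 0.0824). The sum of both copies was 24.5, 21.6 and 16.8 TPM with DMSO and 57.5, 65.4 and 62.5 TPM with MS023, with no overlap. Fitted as 1 gene, the sum rose by a log2 fold change of 1.53 (SE 0.143, adjusted p = 5.21e-04), and the number of clustered genes that were higher became 9. In the PRMT1-KO comparison the sum was 16.3, 20.9 and 16.7 TPM in isgCtrl and 28.1, 20.4 and 21.4 TPM in PRMT1-KO, and it did not pass (log2 fold change 0.35, adjusted p = 0.288).

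A like exchange was seen between H4C11 and H4C12, which share 92.5% of the stretches of H4C11. H4C12 was listed at 0 in 9 samples, at 12.4 TPM in MS023 replicate 1 and at 9.10 TPM in PRMT1-KO replicate 1, and in these 2 samples H4C11 was at 2.07 and 3.40 TPM. The sum was 12.7, 13.5 and 7.45 TPM with DMSO and 13.8 to 14.5 TPM with MS023 (log2 fold change 0.34, adjusted p = 0.219). H4C14 and H4C15 share 98.6% of the stretches of H4C14, and their sum was 11.6, 12.9 and 11.7 TPM with DMSO and 13.0, 16.7 and 16.6 TPM with MS023. The sums differed from DMSO by less than the test requires (adjusted p = 0.0566 for H4C14 with H4C15). Single values of these 6 genes are therefore uncertain, and those of other members may be too. H2AC13, a DEG with MS023, shares 64.9% of its stretches with H2AC14, so a part of its reads may belong there.

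**Figure D3:**
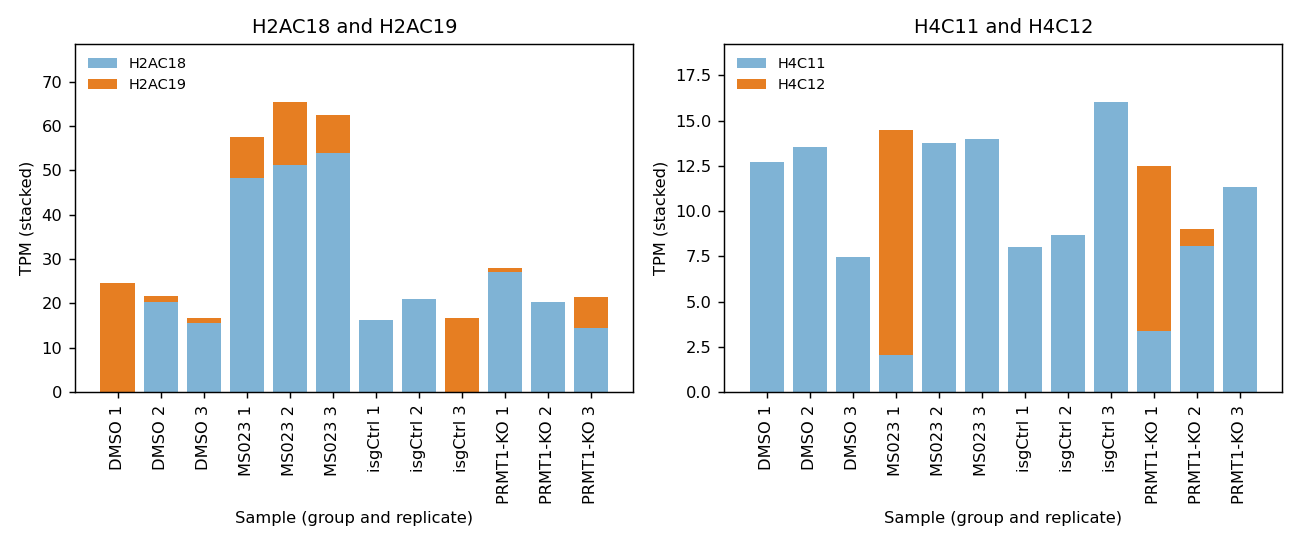
Stacked TPM of H2AC18 and H2AC19 (left) and of H4C11 and H4C12 (right) in each of the 12 samples. In DMSO replicate 1 and isgCtrl replicate 3 the whole left bar is given to H2AC19, while the summed bars of MS023 stand at 57.5 to 65.4 TPM against 16.8 to 24.5 TPM with DMSO.

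Neighbours that share a promoter stretch were compared by their calls. H2A and H2B genes often stand head to head and share the stretch between them: 11 such pairs were found, with 170 to 251 bases between the starts. Both genes of a pair could be tested with MS023 in 4 pairs, and in 3 of them 1 gene was a DEG and the other was not. A DEG beside a gene that is not one does not show a difference, and 30.9% of all genes tested were DEGs. H2BC21 passed the filter through the MS023 group alone and H2BC13 through the DMSO group alone. H2AC6 rose while its neighbour H2BC4 was at a mean of 3.10 TPM with DMSO and 1.99 TPM with MS023 (log2 fold change -0.48, adjusted p = 0.285). H2BC21 rose while H2AC20 was at 5.98 and 4.58 TPM (log2 fold change -0.33, adjusted p = 0.334). H2AC13 rose beside H2BC13. The difference within a pair was not tested. Levels of neighbours also differed widely, most in the pair of H2BC12, at a mean of 91.2 TPM with DMSO, and H2AC12, at 0.465 TPM, which was too low to be tested.

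Promoter sequence is shown for H2BC12, the gene that leads the clustered sum, and for the stretch shared by H2AC6, a DEG with MS023, and H2BC4. The sequences are from RefSeq, assembly GRCh38.p14, which held 71 of the 77 members, and they cover the 250 bases before the start. The octamer ATTTGCAT, the binding motif of POU2F1 and its relatives that is known from H2B promoters, is in capitals on either strand. The H2BC12 stretch is chr6:27146859-27147108 on the minus strand, and that of H2AC6 is chr6:26123922-26124171 on the plus strand.
H2BC12: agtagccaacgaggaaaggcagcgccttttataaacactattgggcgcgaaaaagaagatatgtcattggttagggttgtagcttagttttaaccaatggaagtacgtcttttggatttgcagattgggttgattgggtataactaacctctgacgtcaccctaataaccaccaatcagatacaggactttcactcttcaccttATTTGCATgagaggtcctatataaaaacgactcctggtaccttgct
H2AC6: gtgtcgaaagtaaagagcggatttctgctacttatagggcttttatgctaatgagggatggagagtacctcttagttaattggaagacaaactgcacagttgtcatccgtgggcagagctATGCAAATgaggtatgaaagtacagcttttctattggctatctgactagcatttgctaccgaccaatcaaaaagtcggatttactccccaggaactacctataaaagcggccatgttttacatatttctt

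In H2BC12 the octamer begins 46 bases before the start. It was found in 14 of 17 clustered H2B promoters (82.4%), in 12 of 43 other clustered promoters (27.9%), in 1 of 11 variant promoters and in 1.66% of all 27305 promoters of this length. The CCAAT motif was in 17 of 17, 34 of 43 and 8 of 11 of these promoters and in 33.0% of all, and TATAAA in 12 of 17, 28 of 43 and 4 of 11 and in 11.1% of all, each on either strand. The octamer was present in 3 of the 8 clustered genes that rose, H2BC12, H2BC21 and H2AC6, and in 9 of the 19 tested clustered genes with a known promoter that were not DEGs. H2BC5 rose and has no octamer in this window. A match is a description of the letters and not of a bound site. H2BC21 and H3C6 passed the filter through the MS023 group alone, and some genes that were not DEGs passed through 1 group alone. The octamer split is therefore no measure of all members and was not tested. Of the DEGs above the threshold in both groups, H2BC12 and H2AC6 have the octamer, and H3C10, H1-2, H2BC5 and H2AC13 do not. By annotated 3′ ends, the 18 clustered genes above the filter's threshold in both groups were split by whether a transcript runs past the stem-loop or lacks it. Of the 6 with such a transcript, 3 were higher with MS023 (H2AC6, H3C10 and H2BC5), as were 3 of the 12 without one (H1-2, H2AC13 and H2BC12). This split was not tested.

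Among the variant genes, both H2A.Z genes fell with MS023. H2AZ1 was at 1203, 1194 and 1228 TPM with DMSO and at 683, 695 and 658 TPM with MS023 (log2 fold change -0.83, SE 0.0589, adjusted p = 2.17e-04). H2AZ2 was at 256, 245 and 252 TPM with DMSO and at 141, 138 and 154 TPM with MS023 (log2 fold change -0.80, SE 0.0687, adjusted p = 4.00e-04). In neither gene did the groups overlap. MACROH2A1 was at 202, 213 and 217 TPM with DMSO and at 138, 135 and 144 TPM with MS023. Its log2 fold change of -0.60 (SE 0.0642, adjusted p = 8.37e-04) became -0.47 after median-ratio scaling, just short of the fold threshold.

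H1-10, a linker histone gene on chromosome 3, was the single variant gene that rose. It was at 99.5, 117 and 124 TPM with DMSO and at 196, 217 and 207 TPM with MS023, without overlap (log2 fold change 0.86, adjusted p = 1.13e-03). H3-3A was at 626, 614 and 608 TPM with DMSO and at 457, 470 and 450 TPM with MS023, and H2AX at 117, 121 and 122 TPM and at 91.6, 103 and 96.9 TPM. Both had an adjusted p under 0.05 (H3-3A 2.00e-03, H2AX 0.0144), as did 48.8% of all genes tested, but their log2 fold changes of -0.42 and -0.30 were within the fold threshold. H3-3B was at 529, 525 and 519 TPM with DMSO and at 478, 509 and 517 TPM with MS023 (log2 fold change -0.07, adjusted p = 0.418), and its sign turned to 0.06 after median-ratio scaling. H2AJ, at 47.8 to 54.2 TPM with DMSO and 50.3 to 56.5 TPM with MS023, had overlapping groups (adjusted p = 0.353). Of the 9 tested variants, 6 had all MS023 samples below all DMSO samples and 1 had them above. Of all genes tested, 36.3% lay below and 23.2% above in this way. The 6 include H3-3B, with its log2 fold change of -0.07.

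**Figure D4:**
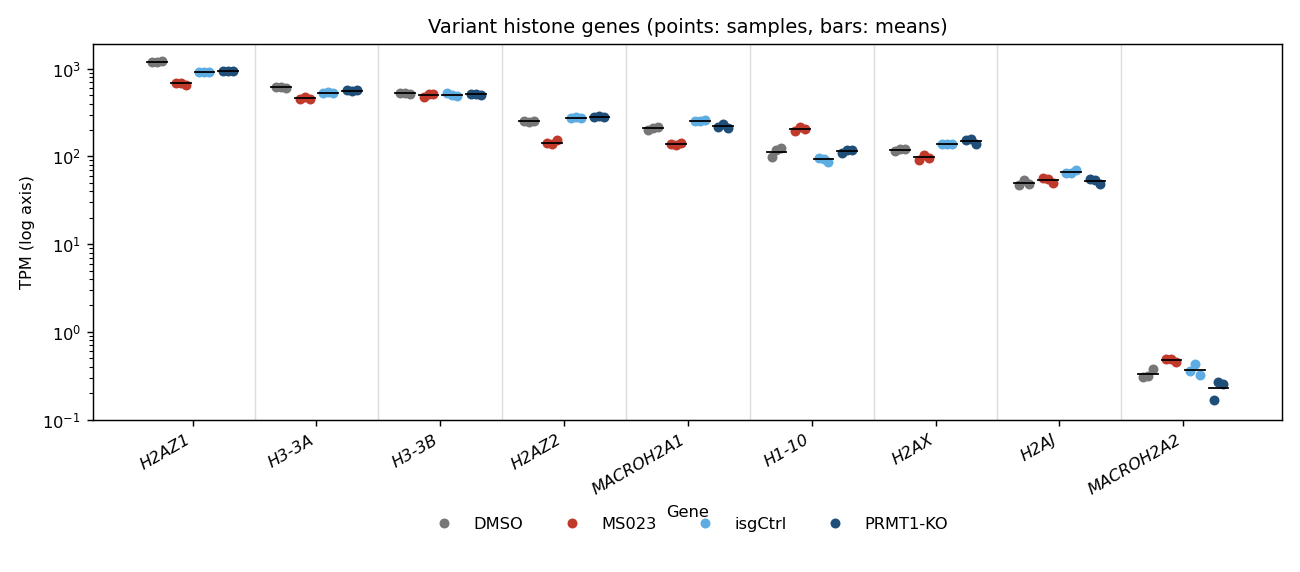
TPM on a log axis of 9 variant genes with values above 0, ordered by mean level, with a point for each of the 3 samples of a group and a bar at the mean. H2AZ1, H2AZ2 and MACROH2A1 are lowest and H1-10 is highest with MS023, and H2AZ1 lies at 658 to 695 TPM there against 1194 to 1228 TPM with DMSO.

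With PRMT1-KO no histone gene was a DEG. Of 29 clustered and 9 variant members tested against isgCtrl, 0 were DEGs by limma. An unadjusted limma p under 0.05 was found for 3 clustered and 4 variant members, beside 2290 of all 12285 genes tested. Of all 12285 genes tested, 0.781% were DEGs, 0.415% higher and 0.366% lower (51 and 45 genes, or 65 and 27 after median-ratio scaling). The 3 members with the lowest p were H2BC4, H1-10 and H2AJ. H2BC4 was at 1.99, 2.21 and 2.30 TPM in isgCtrl and at 3.18, 3.38 and 3.34 TPM in PRMT1-KO, without overlap. It was the 1 member with an adjusted p under 0.05 (0.0384), which 1.28% of all genes tested had, and its log2 fold change of 0.44 (SE 0.0576) was within the fold threshold, though not with 0.1 added in place of 1 (0.59, adjusted p = 0.0391). H1-10 was at 97.3, 94.7 and 85.9 TPM in isgCtrl and at 111, 117 and 118 TPM in PRMT1-KO (log2 fold change 0.32, adjusted p = 0.0989). H2AJ was at 65.3, 64.0 and 69.9 TPM in isgCtrl and at 55.8, 53.5 and 48.8 TPM in PRMT1-KO (log2 fold change -0.33, adjusted p = 0.0998).

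In none of these 3 genes did the groups overlap. Over all tested members, 3 clustered and 5 variant genes had every PRMT1-KO sample above every isgCtrl sample and 0 and 2 had every one below, where 9.11% of all genes tested lay above and 17.6% below. The variant genes above included H1-10, H2AX, H3-3A and H2AZ1. H2AZ1 was at 913, 928 and 924 TPM in isgCtrl and at 946, 932 and 948 TPM in PRMT1-KO (log2 fold change 0.03, SE 0.0437), and H2AX at 138, 139 and 139 TPM and at 152, 159 and 140 TPM (0.12, SE 0.0614). Neither passed the test. MACROH2A1 was at 250, 250 and 257 TPM in isgCtrl and at 217, 232 and 211 TPM in PRMT1-KO (log2 fold change -0.20, adjusted p = 0.158). H2BC12 was at 44.6, 50.1 and 44.9 TPM in isgCtrl and at 40.9, 35.9 and 46.5 TPM in PRMT1-KO, with overlap (log2 fold change -0.18, SE 0.106, adjusted p = 0.410). A direct test of the MS023 effect minus the PRMT1-KO effect, over all 12 samples, was passed by 13 of 41 members (adjusted p under 0.05 by limma), 6 of 32 clustered genes and 7 of 9 variant genes, beside 35.6% of all 13256 genes tested (14.4% with a positive and 21.2% with a negative difference). All 6 clustered differences were positive, 18.8% of the clustered genes tested beside 14.4% of all genes, and were led by H2BC12 (1.24). Among the 6, H3C6 passed the filter through the MS023 group alone, where it was high. Of the 7 variant differences, 5 were negative, led by H2AZ1 (-0.86). The 2 effects have different control groups, which also differ from each other.

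**Figure D5:**
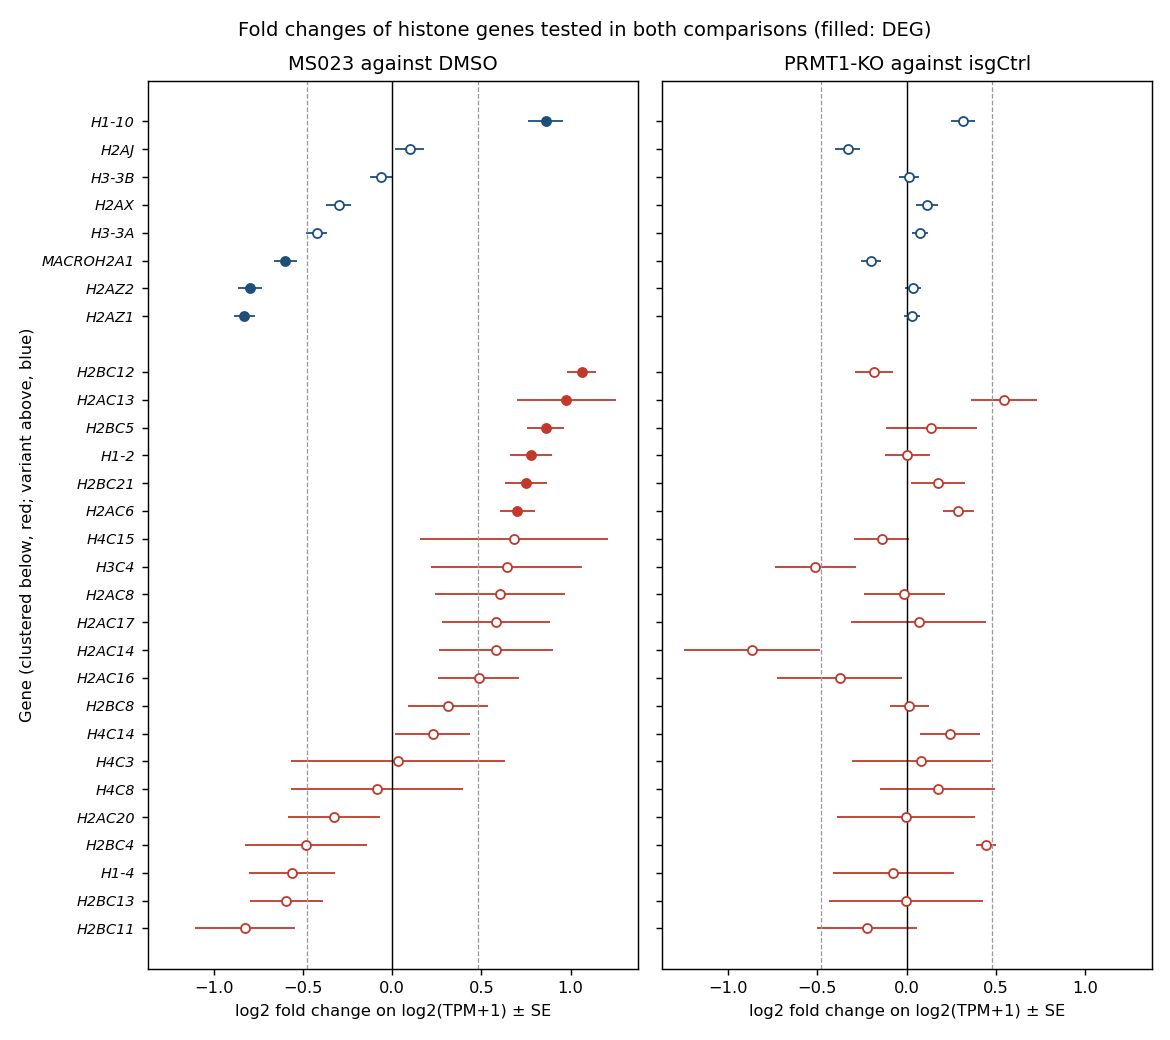
Log2 fold changes on the log2(TPM+1) scale with their SE for the 21 clustered (red) and 8 variant (blue) genes tested in both comparisons, leaving out the 4 copies H2AC18, H2AC19, H4C11 and H4C12, with filled points for DEGs and dashed lines at a change of 0.48 either way. Filled points occur with MS023 alone, and H2AZ1 lies at -0.83 with MS023 and 0.03 in PRMT1-KO.

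Between the 2 control groups, 12% of the clustered genes tested were DEGs, near the share over all genes. In isgCtrl against DMSO, 25 clustered and 9 variant members were tested, and 3 clustered and 0 variant genes were DEGs, where 13.9% of all 12661 genes tested were (7.23% higher and 6.7% lower, 915 and 848 genes, or 671 and 942 after median-ratio scaling). H2BC12 was at 44.6, 50.1 and 44.9 TPM in isgCtrl, below every DMSO sample (log2 fold change -0.96, SE 0.0803, adjusted p = 1.17e-03). H2AC6 was at 5.23, 4.29 and 5.24 TPM in isgCtrl (log2 fold change -0.51, adjusted p = 0.0173), and it was no longer a DEG when isgCtrl replicate 2, DMSO replicate 1 or DMSO replicate 2 was left out, or with the replicate number as a block (adjusted p = 0.0524). H2AC16 was at 0.524, 0.293 and 0.504 TPM with DMSO and at 2.49, 2.28 and 1.21 TPM in isgCtrl (log2 fold change 1.03, adjusted p = 9.97e-03), and it passed the filter through isgCtrl alone. It was named after its values were seen. Of the 9 variant genes, 8 had an unadjusted p under 0.05 by limma, beside 5944 of all 12661 genes tested. An adjusted p under 0.05 was found for 5 of the 9, all within the fold threshold, beside 34.5% of all genes tested. H2AZ1 was lower in isgCtrl (log2 fold change -0.39) and H2AJ higher (0.40). Cas9, the guide vector, doxycycline, DMSO and the history of the culture differ together between these groups and cannot be told apart. The comparison shares its DMSO samples with that of MS023.

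Genes that act on histone mRNA were followed in the same fits. Of 37 tested genes for the transcription, 3′ processing and decay of histone mRNA, 1 was higher and 11 were lower with MS023, beside 11.6% higher and 19.3% lower over all genes tested, and the median log2 fold change was -0.28 beside -0.11. The gene that rose was SLBP, which was at 99.2, 101 and 100 TPM with DMSO and at 228, 233 and 227 TPM with MS023, without overlap (log2 fold change 1.19, SE 0.0559, adjusted p = 7.99e-05). The 4 largest falls were those of CCNE2 and CDK2, which form the cyclin E kinase that acts on NPAT (log2 fold change -1.18 and -0.95), of MIF4GD, an SLBP partner in translation (-0.80), and of POU2F1, the octamer factor (-0.79). NPAT was at 6.81, 5.77 and 6.60 TPM with DMSO and at 5.81, 4.26 and 5.28 TPM with MS023 and did not pass (log2 fold change -0.28, adjusted p = 0.0936). In PRMT1-KO against isgCtrl 0 of the 37 were DEGs, beside 0.781% of all genes, and SLBP was at 91.6 to 95.9 and 96.0 to 102 TPM.

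Most S phase genes tested and 16 of the histone chaperones fell with MS023. Of 32 tested histone chaperones and exchange factors, 0 were higher and 16 lower, beside 11.6% higher and 19.3% lower over all genes tested, with a median log2 fold change of -0.47. The other 16 were not DEGs, with log2 fold changes of up to 0.38. ASF1B, the H3 and H4 chaperone of dividing cells, fell from 82.6, 82.9 and 88.2 TPM to 27.9, 27.1 and 25.4 TPM (log2 fold change -1.62), HMGB1 had a log2 fold change of -1.52, HJURP, which places CENP-A, of -1.43, CHAF1A of the CAF-1 complex of -0.95 and the H4 acetylase HAT1 of -0.92. Of 26 S phase genes, 0 were higher and 21 lower (median -0.84, beside 19.3% of all genes lower), led by LIG1 (-1.55), RFC3 (-1.53), RRM1 (-1.44), CCNA2 (-1.25) and CDC45 (-1.15). Their summed level was 2868 to 2943 TPM with DMSO and 1505 to 1597 TPM with MS023. In PRMT1-KO 0 genes of these lists were DEGs, beside 0.781% of all genes tested. In bulk RNA, fewer cells in S phase and less mRNA per cell cannot be told apart. By flow cytometry, the study reports a lower share of S phase cells in its myeloma lines with MS023 and with PRMT1 knockout. The part of this in the RNA levels was not tested.

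RNAs that have no usual poly(A) tail were followed because most clustered transcripts lack one too. Of 10 tested, 2 were higher and 0 lower with MS023, beside 11.6% and 19.3% of all genes tested. MALAT1, a nuclear RNA, was at 101, 99.0 and 84.8 TPM with DMSO and at 166, 221 and 200 TPM with MS023 (log2 fold change 1.03, adjusted p = 1.43e-03), and SNORD3A, the U3 small nucleolar RNA, had a log2 fold change of 1.10 (adjusted p = 0.0163). RN7SL2, the RNA of the signal recognition particle, was at 1510, 1200 and 1290 TPM with DMSO and at 1062, 1418 and 1256 TPM with MS023, with overlap. The summed level of the list was 1878 to 2327 TPM with DMSO and 1886 to 2803 TPM with MS023, so these groups overlapped. In isgCtrl against DMSO, 3 of 9 tested were lower and 0 higher, beside 6.7% lower and 7.23% higher over all genes tested. The 3 were RN7SL1, MALAT1 and RN7SL2 (log2 fold change -1.28, -1.14 and -0.89). The other 6 were not DEGs, with log2 fold changes of up to 0.33, and the summed level in isgCtrl was 1008 to 1140 TPM. The part of these RNAs, and of the selection of RNA for sequencing, in the clustered result was not tested.

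Histone genes outside the name rule were few. CENPA, the H3 variant of centromeres, was at 45.7, 40.4 and 40.6 TPM with DMSO and at 8.30, 7.39 and 7.16 TPM with MS023 (log2 fold change -2.33, adjusted p = 5.52e-05), a larger change than that of any variant gene in the list, and it was at 40.9 to 47.5 TPM in isgCtrl and 43.1 to 48.3 TPM in PRMT1-KO. H2AW was at 1.07 to 2.66 TPM with DMSO and 2.89 to 6.66 TPM with MS023 (log2 fold change 0.99, adjusted p = 0.0408).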

How the data were processed

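RNA of JJN3 cells was sequenced by the authors to over 60000000 read pairs per sample, per the labels. By the study's methods and processing notes, reads were checked with FastQC, trimmed with Trimmomatic, mapped by STAR (hg38, GENCODE V35) and quantified in Salmon with K-mers of 31, and the deposited values are log2(TPM+1) per gene, in 12 columns, one per sample. TPM have the same total in every sample, so the reads behind a value cannot be recovered from them and no count model was used. Reads that match several near-identical histone genes are divided by an estimate. TPM were recovered as 2 to the power of the value minus 1.

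Groups follow the sample titles. limma 3.58.1 in R 4.3.3 (eBayes without trend) was fitted to the 6 samples of a comparison over all genes whose log2(TPM+1) averaged over 1 in at least 1 group, p were adjusted by Benjamini-Hochberg over all of them, and DEGs changed by over 0.48 (log2) with an adjusted p under 0.05. The difference of effects was a contrast in all 12 samples. Exact permutation tests were two-sided. Levels are given per sample, and spreads as SD or SE. The code was tested on simulated data. Alternatives were other filters, a pseudocount of 0.1, median-ratio and quantile scaling, eBayes with trend, the replicate number as a block, all 12 samples in 1 fit, copies summed, and each replicate left out. Positions and transcripts are from GENCODE v44 on GRCh38, the same genome build. The stem-loop search allowed the known consensus letters.

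Members, lists and comparisons were chosen with earlier results of these data known. Named are the variant genes, clustered DEGs of MS023 or PRMT1-KO, the 5 most abundant clustered genes, the most abundant gene of each family, the 3 lowest p with PRMT1-KO, and the 5 largest DEGs of each list with SLBP and NPAT. The lists hold genes for histone mRNA synthesis and processing, chaperones, S phase genes, RNAs without a poly(A) tail and other histone genes. The sum of H4C11 and H4C12 was added after seeing the data. The counts and sums over all members include 1 variant gene that is not reported here by itself and is left out of the figures of single genes.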

Additional observations from a re-analysis of the deposited data

Results flagged for a closer look

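The effect of MS023 and that of PRMT1-KO differed, by the limma contrast over all 12 samples, for 13 histone genes. The difference, MS023 effect minus PRMT1-KO effect on the log2(TPM+1) scale, was negative for 5 variant genes, at -0.86 for H2AZ1, -0.83 for H2AZ2, -0.50 for H3-3A, -0.42 for H2AX and -0.40 for MACROH2A1. It was positive for the variant genes H2AJ (0.43) and H1-10 (0.54). Among the clustered genes it was 0.41 for H2AC6, 0.58 for H2BC21, 0.77 for H1-2, 0.83 for H3C10, 0.95 for H3C6 and 1.24 for H2BC12. H3C6 passed the filter through the MS023 group alone. The log2 fold changes of H2AJ were 0.10 with MS023 and -0.33 in PRMT1-KO, and H2AJ was a DEG in neither. Of all genes tested, 35.6% differed by the same test. No group of 3 samples was examined for single outlying samples.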

How the results depend on the processing

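With MS023, the number of clustered DEGs was 8 and of variant DEGs 4. Each replicate left out in turn gave 8 to 9 and 4, and requiring log2(TPM+1) above 1 in every sample gave 4 clustered genes of 11 tested. Under that filter 3302 of all 10957 genes tested were DEGs, 1156 of them higher. With PRMT1-KO the clustered and variant counts were both 0 with each replicate left out, and 1 clustered gene, H2BC4, was a DEG with a pseudocount of 0.1. Leaving out a replicate gave 2 to 4 clustered DEGs in isgCtrl against DMSO and 11 to 15 genes whose 2 effects differed. The clustered to variant log2 ratio changed by 1.33 with MS023 (1.24 to 1.41 with a replicate left out), by 0.98 without the most abundant gene of each class, by 1.01 with H2AX counted as clustered and by 0.89 as a difference of medians. In isgCtrl against DMSO it was -0.22 (-0.31 to -0.14), -0.017 without the most abundant genes and 0.034 with H2AX counted as clustered. In PRMT1-KO it was -0.08 to 0.11 with a replicate left out. The causes were not tested.

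Deviations of same-numbered samples from their group means had r of 0.02, 0.07 and 0.10 with MS023 and -0.14, 0.07 and -0.07 with PRMT1-KO. In isgCtrl against DMSO r was -0.03, -0.05 and -0.23. Between samples of different number r was -0.10 to 0.03 with MS023, -0.10 to 0.17 with PRMT1-KO and -0.10 to 0.13 in isgCtrl against DMSO. With 3 samples per group these values cannot decide whether the numbers pair samples. With the replicate number as a block, 11 clustered (9 higher and 2 lower, H1-4 and H2BC4) and 4 variant genes were DEGs with MS023, 0 and 0 with PRMT1-KO and 2 and 0 in isgCtrl against DMSO, and 13 members had effects that differed. In the whole table the block left 4018 DEGs with MS023, 1584 in isgCtrl against DMSO and 0 in PRMT1-KO in place of 96.

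Of the single genes, H3-3B reversed with MS023 after median-ratio scaling (0.060). In isgCtrl against DMSO reversals under median-ratio scaling and quantile normalization were H1-2 (-0.022 and -0.052), H2AC18 (-0.00304 and -0.019) and H4C14 (-0.0032 and -0.026), under quantile normalization also H3-3B (0.0091) and H3C10 (0.087), and H2AC18 summed with H2AC19 was -0.20. None of these was a DEG before. With a replicate left out, values ranged over both signs in isgCtrl against DMSO for H1-2 (-0.087 to 0.11), H2AC13 (-0.43 to 0.043), H2AC18 (-1.38 to 1.46), H3C10 (-0.12 to 0.042) and H4C14 (-0.071 to 0.11), and in PRMT1-KO for H1-2 (-0.077 to 0.11), H2BC5 (-0.14 to 0.35) and H3-3B (-0.020 to 0.047).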
